A study of Mus musculus with 39 samples.

Results

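SW016789, a small molecule that acutely raises insulin secretion of β cells, was set directly against thapsigargin after 24 h in MIN6 cells. These are insulin-secreting β cells derived from a mouse insulinoma. The paper reports that the rise in secretion is early and that longer exposure to the compound leads to a loss of secretion. The libraries compared here are from such a longer exposure and hold no measure of secretion, so they are not taken as those of hypersecreting cells. The comparison takes the 3 libraries labelled SW016789 24 h and the 3 labelled Thapsigargin 24 h, which are 6 of the 39 libraries of the study, and all genes. The study sampled untreated cells at 0 h and cells held in DMSO (0.1%), SW016789 (5 µM) or thapsigargin (100 nM) for 1, 2, 6 or 24 h, as 13 groups of n = 3, with 1 library of each group in each of 3 independent experiments. The 24 h cells received their compound first and were collected together with all others. The 3 DMSO 24 h libraries show on which side of the vehicle a treated level lay, and the 6 h libraries show whether a difference was there earlier. All samples are of 1 tumour-derived mouse line with no genetic change between groups, and the compounds were each used at 1 dose, so a difference between them is a difference between these doses.

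Thapsigargin blocks SERCA, the pump that fills the endoplasmic reticulum (ER) with Ca2+, and so disturbs the folding of secreted proteins there. Cells answer with the unfolded protein response, which has 3 sensors in the ER membrane. PERK phosphorylates eIF2α, which slows protein synthesis and lets the transcription factors ATF4 and CHOP be made. IRE1 splices the mRNA of XBP1 into that of an active factor. ATF6 is cut free in the Golgi and switches on ER chaperones. β cells make so much proinsulin that they lean on this response even at rest, and the PERK branch is known for its part in β cell death when stress lasts.

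Total counts on genes were 31699079 to 47157347 in the 6 libraries, and 21752 of 24421 gene symbols had enough counts to be tested. Levels are given as counts per 1e+06 counts scaled by TMM (CPM), which are shares of the counts of a library, so a lower level cannot be told apart from fewer cells or less RNA per cell of the kind that expresses the gene. The log2 fold changes are of SW016789 over thapsigargin unless DMSO is named, ± is the standard error of the fit, a positive value is higher with SW016789, and a gene is said to be higher or lower, to have risen or to have fallen only where edgeR's quasi-likelihood test gave an adjusted p below 0.05 over all genes tested. Coordinates cover a gene from start to end in mm10. The percent of reads between genes was 6.23 to 9.09 with SW016789 and 6.48 to 8.86 with thapsigargin (exact two-sided permutation test, p = 0.8, where 3 against 3 cannot go below 0.1). No library of the 9 at 24 h stood apart: the first principal component held 68.2% of the variance over 13117 genes and put the 3 thapsigargin libraries at 39.52 to 45.56 and all others below 0. The β cell markers Ins1, Ins2, Iapp, Pdx1, Mafa, Nkx6-1, Slc30a8 and Slc2a2 were present in all 6 libraries. Of 18 acinar and ductal markers 4 reached 1 CPM, with a summed level of 180.09 to 213.63 CPM with SW016789 and 176.42 to 198.34 CPM with thapsigargin. Of 18 stromal, endothelial and immune markers 4 reached 1 CPM, with summed levels of 12.644 to 24.642 and 14.526 to 17.698 CPM. The 1 called was Col1a1, higher with SW016789 (1.68 ± 0.56, adjusted p = 0.032). Its call was lost without SW016789 replicate 2 or thapsigargin replicate 2 or 3.

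Which genes set SW016789 apart from thapsigargin after 24 h was asked of all genes at once. The 2 treatments differed at 3924 genes, 18% of those tested, with 2127 higher with SW016789 (9.78%) and 1797 higher with thapsigargin (8.26%). Most listed genes of the PERK, ATF4 and CHOP branch, of amino acid import and of tRNA charging stood on the thapsigargin side. Genes of insulin and its granule stood on the SW016789 side with 10 of 23 β cell transcription factors, and ER chaperones were split or not called. Most differences were small, with a median absolute log2 fold change of 0.56 over the called genes. Changes above 1 on the log2 scale were called for 398 genes on the SW016789 side and 265 on the thapsigargin side, and above 2 for 52 and 71. The 3 and 3 libraries did not overlap for 3882 of the called genes and for 7765 of all 21752. Without thapsigargin replicate 3 the test called 2358 genes, 1277 and 1081 in the same order. Nearly all called genes, 3911, had a mean of at least 1 CPM, a level that 13160 of the tested genes reached.

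**Figure D1:**
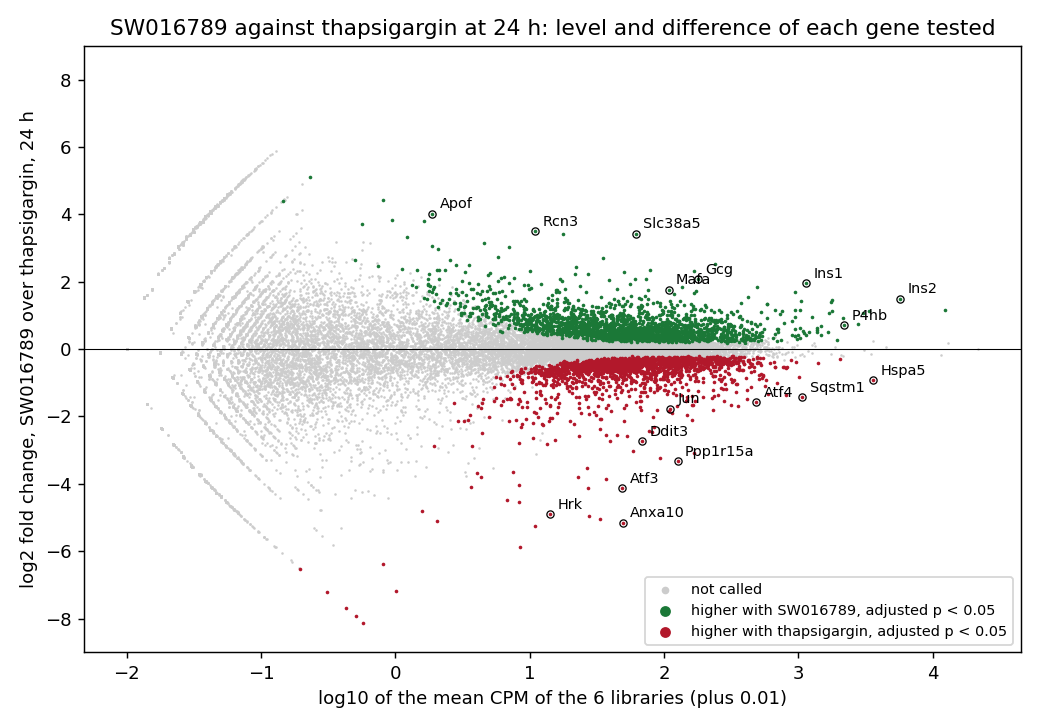
Each point is 1 of the 21752 genes tested, with the log10 of its mean CPM over the 6 libraries (plus 0.01) on the x axis and its log2 fold change of SW016789 over thapsigargin at 24 h on the y axis. Green points were called higher with SW016789 (2127), red points higher with thapsigargin (1797), and grey points were not called. Named genes are ringed, with Atf3 at -4.13 and Slc38a5 at 3.42.

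Each treatment was also read against the same 3 DMSO libraries, and since they are shared the values are only set side by side. SW016789 was above DMSO at 424 genes (1.95%) and below at 231 (1.06%). This total of 655 was 267 without thapsigargin 24 h replicate 3, 297 without SW016789 24 h replicate 1 and 1263 with DESeq2. Thapsigargin was above DMSO at 2191 genes (10.1%) and below at 2320 (10.7%).

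A wide gap lay in the PERK branch, the arm of the response that ends in ATF4 and CHOP. Of 24 genes tested, 20 were higher with thapsigargin, 0 were higher with SW016789 and 4 were not called, with a median log2 fold change of -1.30 beside 0 over all genes tested. With the experiment number as a block, 1 gene of the list was called higher with SW016789. Against DMSO, 9 of the 24 were higher with SW016789 and 21 with thapsigargin, and none was lower with either.

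Atf3, a stress-induced transcription factor of the ATF4 branch (chr1:191170297-191183333), stood at 5.37, 5.25 and 5.18 CPM with SW016789, 78.8, 103.01 and 96 CPM with thapsigargin and 6.06, 7.06 and 5.38 CPM with DMSO. SW016789 libraries lay just below those of DMSO (-0.23 ± 0.19, adjusted p = 0.828, not called), and every thapsigargin library was far above both. The log2 fold change was -4.13 ± 0.20 (adjusted p = 7.72e-18), a level 17.6-fold higher with thapsigargin. Ddit3, which encodes CHOP (chr10:127290793-127296288), stood at 23.6, 15.5 and 14.8 CPM with SW016789, 106.3, 132 and 120.5 CPM with thapsigargin and 15.4, 13.6 and 12.2 CPM with DMSO. Its log2 fold change was -2.73 ± 0.21 (adjusted p = 1.89e-12), and SW016789 against DMSO gave 0.39 ± 0.21 (adjusted p = 0.572), a difference that was not called.

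Atf4, the factor at the head of this branch (chr15:80255184-80257545), was at 284, 250.03 and 199.6 CPM with SW016789, 692, 762 and 740.4 CPM with thapsigargin and 194, 173 and 162 CPM with DMSO. Here both treatments were above the vehicle, and thapsigargin was above SW016789 in every library, with a log2 fold change of -1.58 ± 0.10 (adjusted p = 1.82e-14). ATF4 is also set at the level of translation, which counts of mRNA do not show.

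The branch has brakes of its own, and they were among the genes that differed most. Ppp1r15a encodes GADD34, which brings a phosphatase to eIF2α and ends the block of translation (chr7:45522917-45526268). It stood at 24.8, 23.2 and 20.7 CPM with SW016789, 202, 251 and 236 CPM with thapsigargin and 19.1, 20.2 and 19.3 CPM with DMSO. SW016789 lay close to the vehicle and thapsigargin 10-fold above SW016789 (log2 fold change -3.33 ± 0.13, adjusted p = 2.29e-20). Trib3, a pseudokinase that curbs ATF4 and AKT (chr2:152337425-152344060), was at 39.8, 37 and 28 CPM with SW016789, 285, 309 and 299 CPM with thapsigargin and 18.4, 15.6 and 13.8 CPM with DMSO. In contrast to Ppp1r15a it was raised by both compounds, with log2 fold changes over DMSO of 1.13 ± 0.17 for SW016789 (adjusted p = 1.64e-05) and 4.22 ± 0.18 for thapsigargin (adjusted p = 1.16e-19), and -3.09 ± 0.17 between them (adjusted p = 2.21e-16).

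Apart from Slc7a11, which is described with the amino acid transporters, the other members higher with thapsigargin ranged from Chac1, a glutathione-degrading enzyme, at -2.45 to Ddit4, an inhibitor of mTORC1, at -0.58 on the log2 scale, and the PERK gene itself, Eif2ak3, was at -0.76 ± 0.10 (adjusted p = 3.04e-07). The 4 that were not called were Gdf15, Stc2, Tnfrsf10b and Ero1l, the last with 0.34 ± 0.13 (adjusted p = 0.0692). Gdf15, a stress hormone, was at or below 0.683 CPM in all 6 libraries.

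**Figure D2:**
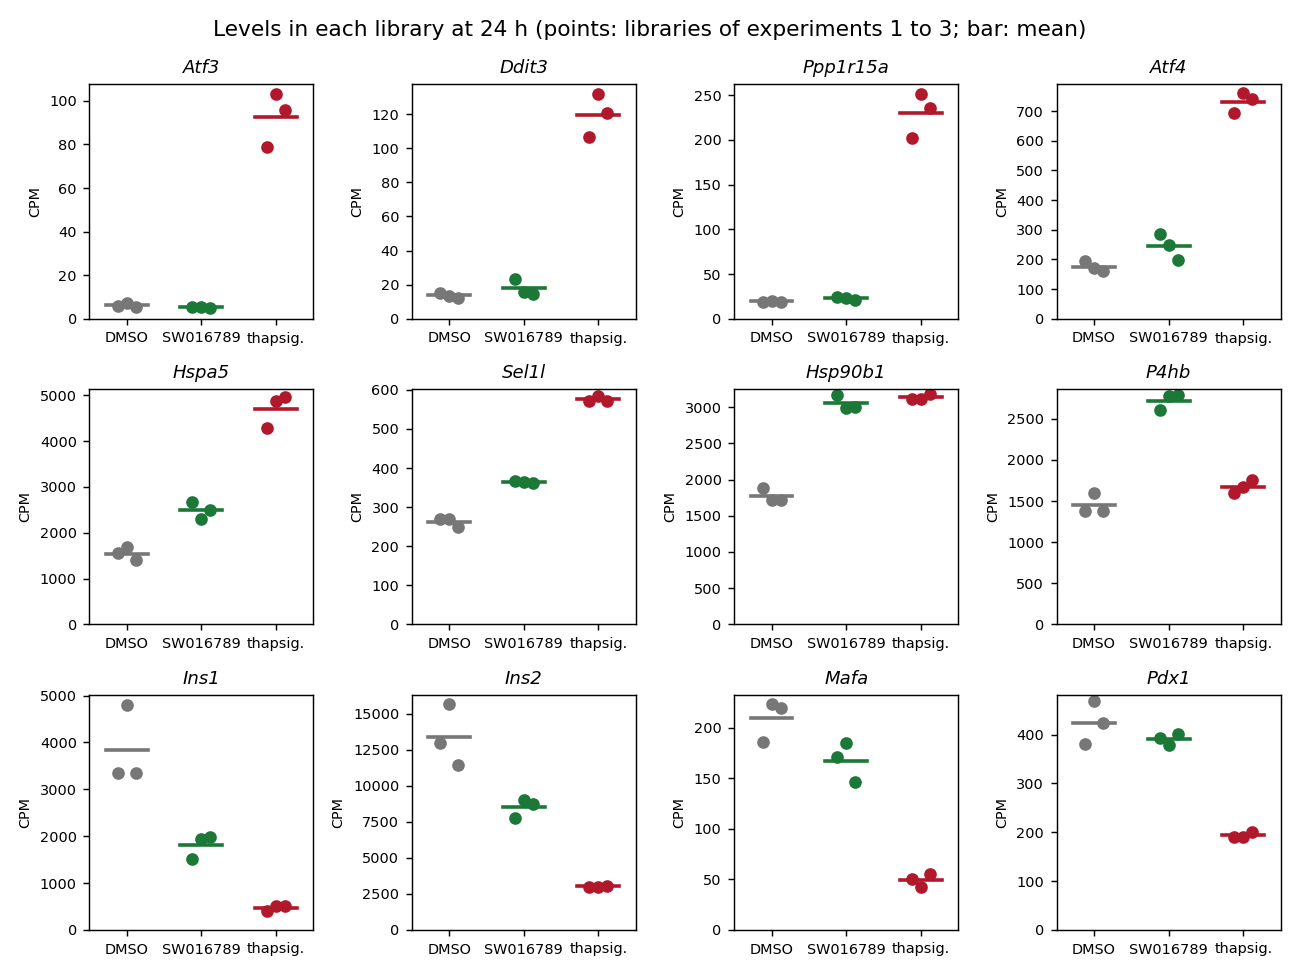
CPM of 12 genes at 24 h, each on an axis that starts at 0, with a point for each of the 3 libraries of DMSO, SW016789 and thapsigargin and a bar at their mean. Atf3, Ddit3 and Ppp1r15a are high only in the thapsigargin libraries among these groups, Hsp90b1 is at like levels with both compounds, P4hb is highest with SW016789, and Ins1, Ins2, Mafa and Pdx1 are lowest with thapsigargin.

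ATF4 and CHOP bind DNA at a composite element, TGATGNAA, also called a CARE. The promoters of Slc7a11 and Atf3 are shown because both genes belong to the list, differ widely between the compounds and carry these letters. They run from 250 bases before to 50 after the annotated start, from RefSeq in GRCm38.p6, which is the build called mm10, 5′ to 3′ along the gene, in lower case with the element in capitals on whichever strand it lies.
Slc7a11, chr3:50443564-50443863, minus strand: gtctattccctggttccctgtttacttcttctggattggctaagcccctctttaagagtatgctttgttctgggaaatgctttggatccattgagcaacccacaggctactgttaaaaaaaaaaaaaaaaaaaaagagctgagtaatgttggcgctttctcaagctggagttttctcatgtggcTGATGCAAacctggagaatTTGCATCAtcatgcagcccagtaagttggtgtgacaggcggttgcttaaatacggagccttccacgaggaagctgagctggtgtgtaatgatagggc
Atf3, chr1:191183284-191183583, minus strand: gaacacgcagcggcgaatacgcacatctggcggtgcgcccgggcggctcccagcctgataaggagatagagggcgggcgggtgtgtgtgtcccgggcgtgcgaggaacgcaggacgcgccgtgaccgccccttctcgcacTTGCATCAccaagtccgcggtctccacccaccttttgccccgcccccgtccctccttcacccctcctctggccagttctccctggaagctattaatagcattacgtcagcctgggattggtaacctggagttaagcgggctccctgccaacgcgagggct
In Slc7a11 the letters occur 66 bases before the start on the strand of the gene and 47 bases before it on the other strand, and in Atf3 110 bases before the start on the other strand. Of 19 list members with a promoter in the table, 8 hold TGATGNAA on either strand in at least 1 window, which is 42.1%. Counted by gene in the same way it was 3.45% of the 15907 tested genes with a promoter. Counted by window it was 3.97% of all 32851 promoter windows of this length. As the list was drawn up for the ATF4 and CHOP branch, its share is no independent sign of that branch. The 8 are Atf3, Trib3, Chac1, Nupr1, Vldlr, Slc7a11, Asns and Pck2, and all were called higher with thapsigargin, as were 17 of all 19. Of all tested genes with a promoter, 4.72% of those higher with thapsigargin and 2.2% of those higher with SW016789 hold the letters. A match is a run of letters and does not show that a factor binds there.

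Amino acid supply is a known output of ATF4, and most transporters listed for it lay on the thapsigargin side. Of 16 amino acid transporters 10 were higher with thapsigargin and 0 with SW016789 (1 with the experiment number as a block), with a median log2 fold change of -1.005. The list does not hold Slc38a5, a glutamine carrier described below, which was higher with SW016789 (3.42 ± 0.17, adjusted p = 7.72e-18). Slc7a11, the cystine importer whose promoter is shown above (chr3:50364936-50443613), stood at 16.1, 10.4 and 11.5 CPM with SW016789, 106.5, 110.05 and 96.3 CPM with thapsigargin and 10.2, 5.7 and 6.24 CPM with DMSO. The thapsigargin libraries were 8.22-fold above those of SW016789 (log2 fold change -3.04 ± 0.27, adjusted p = 4.71e-11), and SW016789 was at 0.78 ± 0.27 over DMSO (adjusted p = 0.136). The glycine importer Slc6a9 differed by -2.54 ± 0.34 (adjusted p = 4.29e-07), and the neutral amino acid carrier Slc1a4 by -1.80 ± 0.11 (adjusted p = 1.55e-15). Slc7a3, a carrier of arginine and lysine (chrX:101079210-101085405), was at 28.9, 22.1 and 18.3 CPM with SW016789, 75.2, 79.2 and 76.9 CPM with thapsigargin and 7.67, 3.97 and 4.78 CPM with DMSO. It was the 1 transporter that SW016789 raised over DMSO, by 2.08 ± 0.28 on the log2 scale (adjusted p = 5.17e-06), and thapsigargin was higher still.

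Cytosolic tRNA synthetases, which load amino acids onto tRNAs, moved almost as a block. Of 20 genes 17 were higher with thapsigargin and 0 with SW016789, with a median log2 fold change of -0.77, and Kars, Dars and Qars were not called. Against DMSO, 18 were higher with thapsigargin and 1 with SW016789. Tars, for threonine, stood at 81.9, 80 and 80.7 CPM with SW016789, 194, 242 and 213 CPM with thapsigargin and 61.7, 69.6 and 69.2 CPM with DMSO, a log2 fold change of -1.42 ± 0.10 (adjusted p = 3.53e-13). Eprs, for glutamate and proline, was at -1.33 ± 0.09 (adjusted p = 7.74e-14). Of 12 synthetases with a promoter sequence, 5 hold TGATGNAA, or 41.7%. For the amino acid transporters it was 3 of 12, or 25%, and for the serine and folate genes described next 0 of 11.

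Serine synthesis and the mitochondrial folate pathway turn glucose into serine, glycine and carbon units for nucleotides. Of 15 genes 8 were higher with thapsigargin, 0 with SW016789 and 7 were not called, with a median of -0.46. Phgdh, the first enzyme of serine synthesis (chr3:98313171-98339969), was at 22.3, 15.8 and 17.1 CPM with SW016789, 47.7, 53.7 and 52.5 CPM with thapsigargin and 11.8, 9.8 and 9.37 CPM with DMSO. Both compounds raised it over the vehicle, SW016789 by 0.83 ± 0.23 (adjusted p = 0.0297) and thapsigargin by 2.31 ± 0.23 (adjusted p = 3.63e-10), and the direct difference was -1.48 ± 0.22 (adjusted p = 3.02e-06). Shmt2, which makes glycine from serine in mitochondria, differed by -1.53 ± 0.11 (adjusted p = 3.53e-13), and Psph, the last enzyme of serine synthesis, by -1.42 ± 0.17 (adjusted p = 6.24e-08).

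ER chaperones and folding enzymes are outputs of ATF6 and XBP1. Of 22 genes, 3 were higher with SW016789, 5 were higher with thapsigargin and 14 were not called, with a median log2 fold change of -0.11, and both compounds raised most of them over DMSO, 20 with SW016789 and 18 with thapsigargin. The 5 were 3 without SW016789 replicate 2 or 3 or thapsigargin replicate 2 or 3. The sizes of the direct difference ran from -1.48 for Atf6 to 0.70 for P4hb.

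Hspa5, which encodes the main ER chaperone BiP (chr2:34772090-34776529), stood at 2674, 2292 and 2506 CPM with SW016789, 4286, 4885 and 4955 CPM with thapsigargin and 1562, 1682 and 1395 CPM with DMSO. The 3 groups did not overlap, with SW016789 between the vehicle and thapsigargin, and the direct log2 fold change was -0.92 ± 0.10 (adjusted p = 2.15e-09). Hsp90b1, the ER form of HSP90 (chr10:86690841-86705444), was at 3173, 2992 and 3007 CPM with SW016789, 3119.9, 3109 and 3177 CPM with thapsigargin and 1880.2, 1720.2 and 1718 CPM with DMSO. Here the libraries of both compounds overlapped and lay above DMSO, with a log2 fold change between them of -0.04 ± 0.07 (adjusted p = 0.881). Fkbp11, an ER prolyl isomerase, rose most of the list with SW016789, from 5, 4.94 and 5.25 CPM with DMSO to 25.6, 22.8 and 20.3 CPM, and was at 25.1, 22.3 and 26.2 CPM with thapsigargin, which is -0.10 ± 0.21 between the compounds (adjusted p = 0.883).

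P4hb, a protein disulfide isomerase that forms the disulfide bonds of proinsulin and other cargo (chr11:120560304-120572936), went the other way. It stood at 2604, 2773 and 2790.3 CPM with SW016789, 1602, 1666 and 1750.2 CPM with thapsigargin and 1380.3, 1604 and 1383 CPM with DMSO. SW016789 raised it by 0.90 ± 0.10 over DMSO (adjusted p = 4.04e-08), thapsigargin was at 0.20 ± 0.10 (adjusted p = 0.161), and the difference was 0.70 ± 0.10 (adjusted p = 5.54e-07). Sil1, the nucleotide exchange factor that resets BiP, was likewise higher with SW016789, by 0.62 ± 0.13 (adjusted p = 0.000555), as was Creld2, a secreted ER protein, by 0.31 ± 0.10 (adjusted p = 0.0181). On the thapsigargin side were Atf6 itself, with 214, 216 and 228 CPM under SW016789, 576, 653 and 612 CPM under thapsigargin and 179.9, 189 and 178 CPM under DMSO (-1.48 ± 0.08, adjusted p = 3.6e-17), and the BiP cochaperone Dnajb9 (-1.10 ± 0.11, adjusted p = 3.68e-10), with Hspa5, Hyou1 and Dnajb11.

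**Figure D3:**
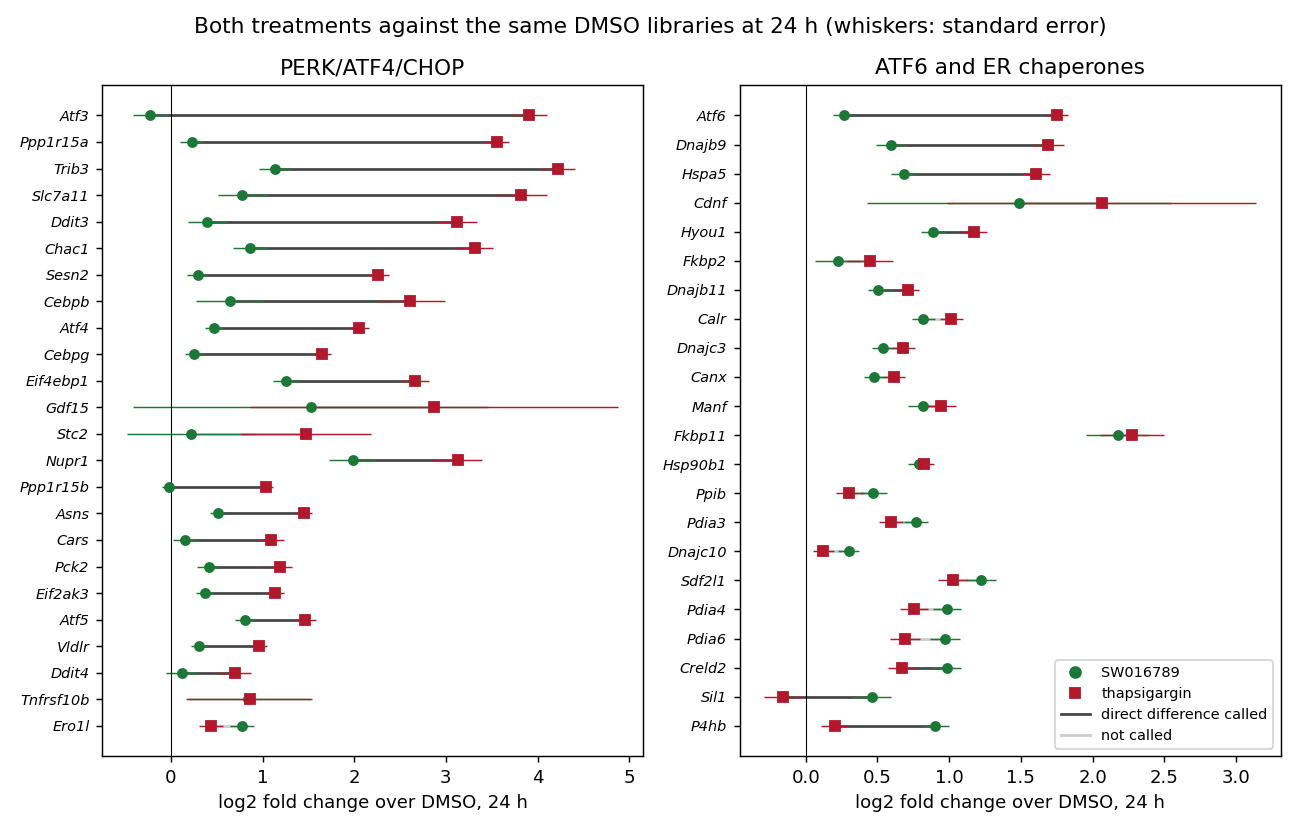
Log2 fold change over DMSO at 24 h of each tested gene of the PERK, ATF4 and CHOP list (24 genes, left) and of the ATF6 and ER chaperone list (22 genes, right), with SW016789 as green circles and thapsigargin as red squares, whiskers the standard error. Dark lines join genes whose direct difference was called and light lines those whose difference was not. Thapsigargin lies to the right of SW016789 for 20 called genes on the left, and the pair lies close together for most chaperones, 14 of which were not called.

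The ER stress element, CCAAT and CCACG with 9 bases between them, is the element through which ATF6 switches on chaperones. Hspa5 and Derl3 are shown because both carry it and both rose with both compounds, Hspa5 with a called difference between them and Derl3 without. The element is in capitals, and in Derl3 it lies on the other strand and so begins with CGTGG and ends with ATTGG.
Hspa5, chr2:34771840-34772139, plus strand: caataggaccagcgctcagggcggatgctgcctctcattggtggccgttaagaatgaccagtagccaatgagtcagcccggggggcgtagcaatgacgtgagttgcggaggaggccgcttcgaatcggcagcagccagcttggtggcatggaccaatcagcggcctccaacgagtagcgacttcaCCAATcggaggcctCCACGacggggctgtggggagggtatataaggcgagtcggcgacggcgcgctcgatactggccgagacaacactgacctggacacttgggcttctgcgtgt
Derl3, chr10:75893148-75893447, plus strand: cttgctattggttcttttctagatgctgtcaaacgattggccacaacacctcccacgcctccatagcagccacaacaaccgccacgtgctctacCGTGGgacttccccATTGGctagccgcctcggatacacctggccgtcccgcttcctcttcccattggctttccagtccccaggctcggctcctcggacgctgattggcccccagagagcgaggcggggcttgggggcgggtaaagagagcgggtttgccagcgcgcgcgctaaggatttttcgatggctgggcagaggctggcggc
The element begins 65 bases before the start in Hspa5 on the strand of the gene and 156 bases before it in Derl3 on the other strand. Of 18 chaperone genes with a promoter sequence, 7 hold it on either strand, or 38.9%, against 0.157% of tested genes counted in the same way and 0.119% of all windows. The list was drawn up for the ATF6 branch, so its share is no independent sign of it. The 7 are Hspa5, Hsp90b1, Calr, Canx, Pdia6, Creld2 and Dnajc3. Hspa5 was higher with thapsigargin, Creld2 with SW016789 and the others were not called. TGACGTGG, an element of XBP1 and ATF6, is in 0.676% of windows, in 0.924% of tested genes and in none of these 18.

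The targets of IRE1 and XBP1 bring proteins into the ER and glycosylate them. Of 23 genes 2 were higher with SW016789, 8 with thapsigargin and 13 were not called, with a median of -0.21. The 8 were 2 without thapsigargin replicate 3, 3 without SW016789 replicate 3 and 4 without thapsigargin replicate 2, and the 2 were 0 or 1 whichever library was left out. Xbp1 itself, counted without regard to splicing (chr11:5520641-5525993), was at 311, 357 and 278 CPM with SW016789, 383, 419 and 396 CPM with thapsigargin and 252, 256 and 219 CPM with DMSO. Its log2 fold change was -0.34 ± 0.10 (adjusted p = 0.00848), a call that was lost without SW016789 replicate 3, thapsigargin replicate 2 or thapsigargin replicate 3, with values of -0.44 to -0.25 over the libraries left out. Ssr3, a subunit of the translocon-associated complex, differed by -0.56 ± 0.07 (adjusted p = 2.46e-07).

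ER-associated degradation (ERAD) pulls misfolded proteins out of the ER for the proteasome. Of 31 genes tested 2 were higher with SW016789, 14 with thapsigargin and 15 were not called, with a median of -0.25. Against DMSO 9 were higher and 0 lower with SW016789, and 23 higher and 2 lower with thapsigargin. Herpud1, a scaffold of the degradation complex (chr8:94386500-94395358), stood at 161, 136 and 121.5 CPM with SW016789, 323, 389 and 376 CPM with thapsigargin and 84, 82.3 and 77.9 CPM with DMSO, a difference of -1.38 ± 0.11 (adjusted p = 3.32e-12). Both partners of the core ligase could be compared. Sel1l, its adaptor (chr12:91806043-91849157), was at 368, 364 and 362 CPM with SW016789, 572, 585 and 571 CPM with thapsigargin and 270.3, 269 and 248 CPM with DMSO. Syvn1, the ligase HRD1 itself (chr19:6046576-6053718), was at 206, 206 and 161 CPM with SW016789, 214, 223 and 204 CPM with thapsigargin and 139, 133 and 123.3 CPM with DMSO. The adaptor was lower with SW016789, at -0.66 ± 0.07 (adjusted p = 1.01e-08), and the ligase was at -0.16 ± 0.11 (adjusted p = 0.372) and not called. Whether the adaptor and the ligase differed from each other in response was not tested.

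Derl3, a derlin of the degradation channel (chr10:75893398-75895941), was at 36.4, 44.8 and 26.8 CPM with SW016789, 31.5, 31.1 and 26.3 CPM with thapsigargin and 14, 12.8 and 11.7 CPM with DMSO. Its libraries overlapped between the compounds, all above DMSO, with 0.28 ± 0.19 between them (adjusted p = 0.423), while its relative Derl1 differed by -0.73 ± 0.09 (adjusted p = 6.68e-08). Os9, a lectin that brings glycoproteins to the ligase, was at 0.11 ± 0.08 (adjusted p = 0.428). Ube2g2, a ubiquitin-conjugating enzyme of this pathway, was raised over DMSO by thapsigargin (1.28 ± 0.11, adjusted p = 4.06e-12) and was at 0.08 ± 0.11 with SW016789 (adjusted p = 0.94), with -1.20 ± 0.11 between them (adjusted p = 3.29e-11).

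COP-II vesicles carry cargo from the ER to the Golgi, and their genes divided. Of 25 genes 7 were higher with SW016789, 6 with thapsigargin and 12 were not called, with a median of 0.09. The 7 were 2 without thapsigargin replicate 3, 6 without SW016789 replicate 3 and 4 without any other 1 of the 6 libraries, and the 6 were 3 without thapsigargin replicate 3. Sec13, of the outer coat, was higher with SW016789 (0.47 ± 0.08, adjusted p = 2.18e-05), as were Sec31a, Sec23a and both Sar1 GTPases. Ergic1, a cargo receptor between the ER and the Golgi (chr17:26561512-26656933), stood at 249, 278 and 259.8 CPM with SW016789, 155, 161 and 162 CPM with thapsigargin and 208, 232 and 211 CPM with DMSO (0.72 ± 0.10, adjusted p = 5.04e-07). Higher with thapsigargin were the inner coat subunits Sec24d (-0.52 ± 0.10, adjusted p = 0.000239) and Sec23b, and the cargo receptor subunit Mcfd2 (-0.59 ± 0.13, adjusted p = 0.000604).

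**Figure D4:**
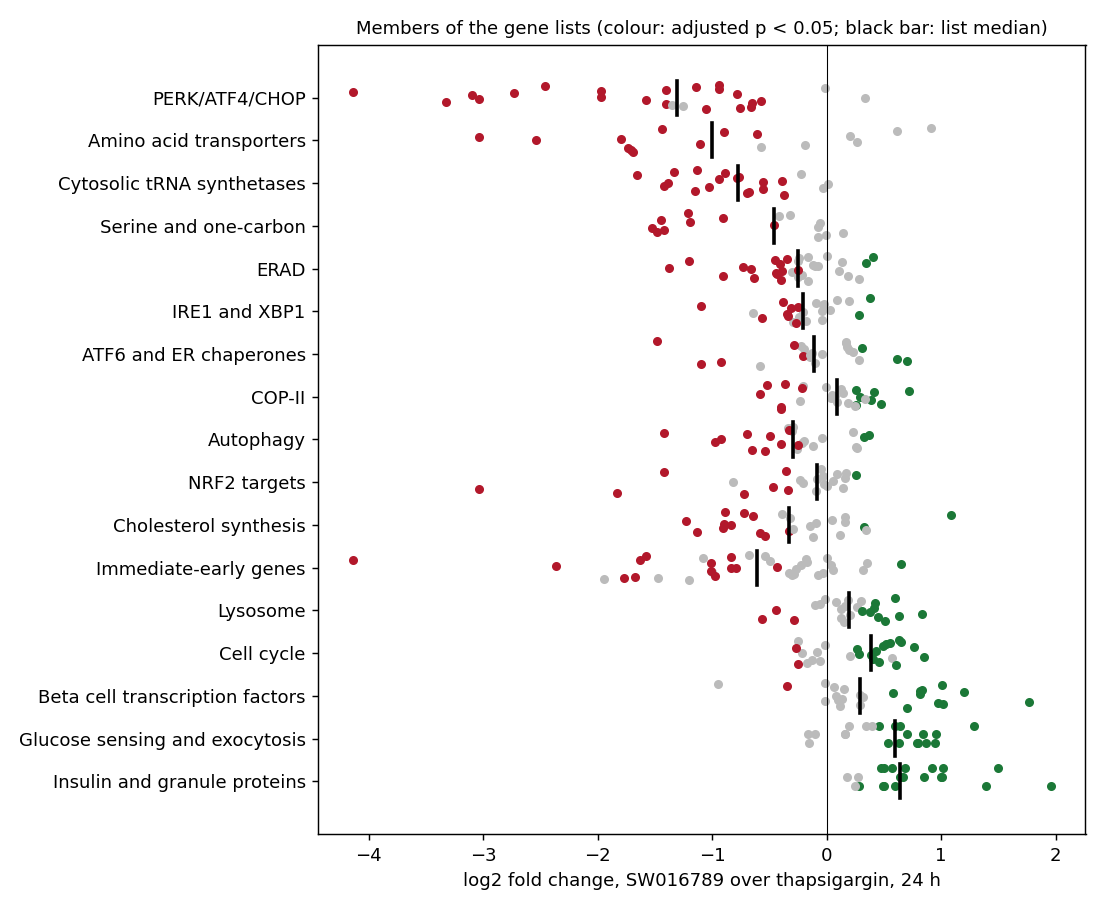
Log2 fold change of SW016789 over thapsigargin at 24 h of each tested member of 17 gene lists, 1 point per gene, green where called higher with SW016789, red where called higher with thapsigargin and grey where not called, with a black bar at the median of the list. The medians run from -1.30 for the PERK, ATF4 and CHOP list to 0.64 for insulin and granule proteins, beside 0 over all genes tested.

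Genes of insulin and its granule were higher with SW016789 than with thapsigargin. Of 21 genes 18 were higher with SW016789, 0 with thapsigargin and 3 were not called, with a median log2 fold change of 0.64. Against DMSO 3 were higher and 7 lower with SW016789, and 0 higher and 17 lower with thapsigargin.

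Ins1 (chr19:52264323-52265458) stood at 1523, 1943 and 1992 CPM with SW016789, 397, 506 and 504 CPM with thapsigargin and 3351, 4800.2 and 3340.3 CPM with DMSO. The 3 groups were apart from each other, with DMSO above SW016789 and thapsigargin lowest, and SW016789 was 3.88-fold above thapsigargin (1.96 ± 0.18, adjusted p = 1.3e-10). Ins2 (chr7:142678656-142679708), the other mouse insulin gene, stood at 7797, 9032 and 8753 CPM with SW016789, 2998, 3009.8 and 3056 CPM with thapsigargin and 12985, 15708 and 11480.0 CPM with DMSO, in the same order (1.497 ± 0.131, adjusted p = 2.87e-11). Both insulin genes are near copies, so reads that they share are missing from counts of uniquely mapped pairs.

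The convertases that cut proinsulin both differed. Pcsk2 (chr2:143546133-143816282) was at 2278, 2575 and 2775 CPM with SW016789, 943, 952 and 1019.6 CPM with thapsigargin and 2934, 3357 and 3068 CPM with DMSO. SW016789 was at -0.30 ± 0.10 over DMSO (adjusted p = 0.135) and 1.39 ± 0.10 over thapsigargin (adjusted p = 5.21e-13). Pcsk1 fell with both against DMSO, by 0.48 with SW016789 and by 1.05 with thapsigargin on the log2 scale, and differed by 0.57 ± 0.09 (adjusted p = 1.62e-05). Ucn3, a peptide that mature β cells release, was at 1.01 ± 0.14 (adjusted p = 5.89e-07), and Sytl4, which docks granules, at 1.02 ± 0.09 (adjusted p = 1.8e-11). The 3 that were not called were the granin gene Scg2, the ER membrane proteolipid gene Nnat and Iapp. Iapp, which encodes amylin, was at 12928, 13870.0 and 14547 CPM with SW016789, 11813, 12207 and 12535 CPM with thapsigargin and 12343, 13387 and 11408 CPM with DMSO, with 0.18 ± 0.11 between the compounds (adjusted p = 0.324).

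β cell transcription factors came next. Of 23 genes 10 were higher with SW016789, 1 with thapsigargin and 12 were not called, with a median of 0.29. Against DMSO 1 was higher and 3 lower with SW016789, and 0 higher and 13 lower with thapsigargin. Mafa, an activator of the insulin genes in mature cells (chr15:75746843-75747922), was at 171, 186 and 146 CPM with SW016789, 50.1, 42.3 and 55.6 CPM with thapsigargin and 186, 224 and 219.8 CPM with DMSO. Thapsigargin was well below both other groups, and SW016789 was at -0.33 ± 0.18 against DMSO (adjusted p = 0.574) and 1.76 ± 0.18 against thapsigargin (adjusted p = 1.33e-09). Pdx1, which holds β cell identity (chr5:147270131-147275149), stood at 393, 379 and 401 CPM with SW016789, 190.1, 191 and 201 CPM with thapsigargin and 382, 468 and 423 CPM with DMSO (1.01 ± 0.10, adjusted p = 6.56e-10).

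Mnx1 differed by 1.20 ± 0.19 (adjusted p = 6.02e-06) and Hnf4a by 1.01 ± 0.17 (adjusted p = 2.22e-05). Pax6, Nkx2-2, Foxa2, Isl1, Neurod1 and Rfx6 were higher with SW016789 by 0.58 to 0.97 on the log2 scale. Insm1, a factor of endocrine cells, was the 1 member higher with thapsigargin (-0.35 ± 0.09, adjusted p = 0.00324), a call lost without SW016789 replicate 3 or thapsigargin replicate 3, and Nkx6-1, another identity factor, was at 0.31 ± 0.14 (adjusted p = 0.15) and not called.

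Glucose sensing and exocytosis, the machinery that turns glucose into granule release, had 13 of 21 genes higher with SW016789, 0 higher with thapsigargin and 8 not called, with a median of 0.60. Rab3a, a GTPase of the granule (chr8:70754679-70758686), stood at 117.8, 151 and 125.9 CPM with SW016789, 52.2, 51.8 and 58.1 CPM with thapsigargin and 104.6, 121.3 and 107.6 CPM with DMSO (1.28 ± 0.13, adjusted p = 3.82e-10). G6pc2, which sets the glucose threshold of the β cell, differed by 0.95 ± 0.10 (adjusted p = 1.48e-09), and Glp1r, the receptor of the incretin GLP-1, by 0.87 ± 0.09 (adjusted p = 2.47e-09). Slc2a2, the glucose transporter GLUT2 (chr3:28697903-28728360), was at 43.2, 55.6 and 49.8 CPM with SW016789, 35.8, 30.5 and 36.3 CPM with thapsigargin and 101.1, 107.5 and 87 CPM with DMSO. This was the 1 gene of the list that SW016789 lowered against DMSO, by -0.99 ± 0.14 (adjusted p = 8.08e-06), and it still exceeded thapsigargin by 0.53 ± 0.14 (adjusted p = 0.00487). The K-ATP channel gene Kcnj11 was not called, at 0.19 ± 0.10 (adjusted p = 0.2).

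Genes of Ca2+ handling were of interest because both compounds act on Ca2+. Of 25 genes 7 were higher with SW016789, 3 with thapsigargin and 15 were not called, with a median of 0.08. The gene of the pump that thapsigargin blocks, Atp2a2 (chr5:122453513-122502225), was at 3267, 3394 and 3182 CPM with SW016789, 3588, 3629.8 and 3692 CPM with thapsigargin and 3984, 3917 and 3599.5 CPM with DMSO, a difference of -0.15 ± 0.07 (adjusted p = 0.2) that was not called. Pumps of the plasma membrane, which push Ca2+ out of the cell, did differ. Atp2b2 was at 59.7, 66.1 and 64.5 CPM with SW016789, 32.3, 30.5 and 32.5 CPM with thapsigargin and 62.9, 64.8 and 68.9 CPM with DMSO (1.00 ± 0.09, adjusted p = 6.2e-11), Atp2b4 differed by 1.00 ± 0.12 (adjusted p = 3.74e-08), and the IP3 receptor gene Itpr3 by 0.91 ± 0.19 (adjusted p = 0.00038). Vdac1, a channel of the outer mitochondrial membrane (chr11:52361115-52389396), was at 396, 485 and 477 CPM with SW016789, 309, 322 and 351 CPM with thapsigargin and 446, 502 and 457 CPM with DMSO. It was higher with SW016789 (0.47 ± 0.10, adjusted p = 0.000299), whose level was at -0.05 ± 0.10 against DMSO (adjusted p = 0.99), and its relative Vdac3 was higher with thapsigargin (-0.78 ± 0.10, adjusted p = 5.43e-08).

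Genes of the Bcl2 family and of cell death were mostly not called. Of 24 genes 2 were higher with SW016789, 4 with thapsigargin and 18 were not called, with a median of -0.03. Over all genes tested 18% were called, and 3911 of the 13160 that had a mean of at least 1 CPM. Hrk, which encodes a BH3-only protein that favours apoptosis (chr5:118169764-118189478), stood at 1.15, 0.999 and 0.595 CPM with SW016789, 24.8, 28.9 and 29.2 CPM with thapsigargin and 0.841, 0.967 and 0.888 CPM with DMSO (-4.91 ± 0.69, adjusted p = 8.82e-07). Bbc3, the BH3-only gene of PUMA, was at 8.53, 6.96 and 4.36 CPM with SW016789 and 19.6, 19.9 and 20.3 CPM with thapsigargin (-1.59 ± 0.28, adjusted p = 4.42e-05). Txnip, an inhibitor of thioredoxin that rises in stressed β cells, was at 21.2, 57.3 and 44.7 CPM with SW016789, 75.5, 119.3 and 129 CPM with thapsigargin and 22.4, 43.8 and 40.5 CPM with DMSO. Replicate 1 had the lowest level in each of the 3 groups, and the difference of -1.40 ± 0.37 (adjusted p = 0.00473) was not called without SW016789 replicate 1. The anti-apoptotic genes Bcl2 (0.11 ± 0.10, adjusted p = 0.604) and Bcl2l1 (0.24 ± 0.11, adjusted p = 0.152) were not called.

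Immediate-early genes answer Ca2+ and growth signals within the first hour, and what their levels at 24 h say of signalling was not tested. Atf3 is on this list as well as on that of the PERK branch. Of 36 genes 1 was higher with SW016789, 13 with thapsigargin and 22 were not called, with a median of -0.61, and against DMSO 0 were higher and 7 lower with SW016789, and 10 higher and 6 lower with thapsigargin. Jun, a subunit of AP-1 (chr4:95049036-95052222), was at 40.6, 50.5 and 60.6 CPM with SW016789, 142, 193 and 183 CPM with thapsigargin and 46.4, 55.8 and 57.4 CPM with DMSO. SW016789 overlapped the vehicle and thapsigargin lay above it in every library (-1.77 ± 0.14, adjusted p = 1.12e-12). Myc was at 10.7, 11 and 10.8 CPM with SW016789 and 52.1, 55.7 and 59.9 CPM with thapsigargin (-2.36 ± 0.44, adjusted p = 9.45e-05). Dusp5, a phosphatase that switches off ERK, was the 1 member higher with SW016789 (0.65 ± 0.10, adjusted p = 2.11e-06). Fos, the AP-1 partner of Jun, was at -0.84 ± 0.30 (adjusted p = 0.0474), a call lost whichever of the 6 libraries was left out. Egr2, a zinc finger factor of this class, was at -1.94 ± 0.75 with an adjusted p of 0.0697, and of 0.0369 with the experiment number as a block.

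Antioxidant and autophagy genes were called on both sides. Of 22 NRF2 targets 1 was higher with SW016789 and 7 with thapsigargin, with a median of -0.09, and of 24 autophagy genes 2 and 10 (4 on the SW016789 side with the experiment number as a block), with a median of -0.30. Without thapsigargin replicate 3 the autophagy counts were 0 and 5. Hmox1, a heme-degrading enzyme (chr8:75093618-75100593), stood at 40.9, 58.3 and 43.3 CPM with SW016789, 153, 165 and 189 CPM with thapsigargin and 28.6, 28.5 and 27 CPM with DMSO (-1.83 ± 0.13, adjusted p = 8.07e-14). Sqstm1, the autophagy receptor p62 that is on both lists (chr11:50200152-50210820), was at 608, 608 and 538 CPM with SW016789, 1464, 1585 and 1653 CPM with thapsigargin and 394, 456 and 391 CPM with DMSO (-1.42 ± 0.08, adjusted p = 2.21e-16). For both genes SW016789 was above the vehicle too, and thapsigargin above SW016789. Nfe2l2, the gene of NRF2 itself, was at -0.09 ± 0.10 (adjusted p = 0.681), and Nqo1, a standard NRF2 target, at 0.09 ± 1.32 (adjusted p = 1), so neither was called. With so wide a standard error the value of Nqo1 does not show that its levels were alike. The autophagy genes Gabarapl1 (-0.92 ± 0.11, adjusted p = 3.27e-08) and Atg14 (-0.97 ± 0.16, adjusted p = 1.55e-05) were higher with thapsigargin.

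Lysosomal genes had 9 of 24 higher with SW016789, 3 with thapsigargin and 12 not called, at a median of 0.20. The 9 were 4 without thapsigargin replicate 3 and 5 without thapsigargin replicate 2, and the 3 were 1 without SW016789 replicate 1 or 2 or thapsigargin replicate 2 or 3. Ctsz, a cathepsin, differed by 0.83 ± 0.16 (adjusted p = 9.4e-05), Atp6ap1, of the proton pump that acidifies lysosomes and granules, by 0.60 ± 0.07 (adjusted p = 4.59e-08), and the cholesterol exporter Npc1 by -0.56 ± 0.09 (adjusted p = 9.27e-06).

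Cholesterol synthesis had 2 of 24 genes higher with SW016789, 11 with thapsigargin and 11 not called, at a median of -0.33. Hsd17b7, which reduces a sterol ketone on the way to cholesterol, was at 23.2, 29.8 and 24.3 CPM with SW016789, 62.4, 56.4 and 61.6 CPM with thapsigargin and 26.8, 30.8 and 27.4 CPM with DMSO (-1.22 ± 0.10, adjusted p = 1.46e-11). SW016789 kept to the vehicle and thapsigargin lay above both. Srebf1, whose product drives fatty acid synthesis (chr11:60199089-60220604), was at 297, 352 and 311 CPM with SW016789, 150.1, 151 and 151 CPM with thapsigargin and 265, 269 and 269.6 CPM with DMSO, and so went against the enzymes of the list (1.09 ± 0.09, adjusted p = 3.94e-12). Srebf2, of the factor that drives the cholesterol enzymes, was at -0.09 ± 0.10 (adjusted p = 0.676).

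Cell cycle genes were higher with SW016789 at 14 of 25 and higher with thapsigargin at 2 (4 with the experiment number as a block), with a median of 0.39, and were lower than DMSO at 8 with SW016789 and 15 with thapsigargin. The 14 included genes of mitosis, such as Cdk1, the kinase that starts it, at 99.7, 104.3 and 115.2 CPM with SW016789, 64.6, 69.7 and 69.3 CPM with thapsigargin and 142, 146 and 131 CPM with DMSO (0.65 ± 0.08, adjusted p = 1.34e-07), and Aurkb (0.76 ± 0.15, adjusted p = 0.000179). The 2 on the thapsigargin side were Mcm2 and Mcm7, subunits of the replication helicase, at -0.25 and -0.27, and 0 or 1 of these calls was left whichever library was left out. Without thapsigargin replicate 3 the 14 were 9. All 3 groups differed at Cdk1, DMSO above SW016789 above thapsigargin.

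The remaining lists are given as counts of called genes. Beside them stand 18% called over all genes tested, and 3911 called of the 13160 with a mean of at least 1 CPM. Of 20 genes that β cells keep low 2 were higher with SW016789 and 4 with thapsigargin (4 and 6 with the experiment number as a block), of 22 genes of antigen presentation and interferon 1 and 0 (3 and 0 with the block), of 16 cytosolic heat shock genes 1 and 2, and of 20 NF-kB and acute phase genes 0 and 5. Ldha, lactate dehydrogenase, stood at 754, 761 and 991 CPM with SW016789, 286, 325 and 386 CPM with thapsigargin and 690.0, 946 and 857 CPM with DMSO. Although on the list of genes that β cells keep low, it was well expressed in these cells. It lay near the vehicle with SW016789 and was lower with thapsigargin (1.33 ± 0.18, adjusted p = 4.3e-07). H2-T23, a nonclassical MHC gene, was at 22.4, 20.8 and 30.9 CPM with SW016789 and 5.92, 7.44 and 8.69 CPM with thapsigargin (1.75 ± 0.20, adjusted p = 1.8e-08). Lcn2, an acute phase protein that binds iron carriers (chr2:32384637-32387739), was at 2.52, 0.966 and 1.69 CPM with SW016789, 47.7, 53.7 and 58.6 CPM with thapsigargin and 0.495, 0.0784 and 0.261 CPM with DMSO (-4.94 ± 1.10, adjusted p = 0.000808).

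Hormone genes of other islet cells were read too, since MIN6 cells make some of them. Of 12 genes 6 reached 1 CPM and 2 were called, both higher with SW016789. Gcg, the glucagon gene, was at 249.97, 299 and 322 CPM with SW016789, 72.4, 65.7 and 69.5 CPM with thapsigargin and 345, 327 and 337 CPM with DMSO (2.07 ± 0.11, adjusted p = 7.86e-17), and Ttr, a carrier protein abundant in islets, was at 2.51 ± 0.12 (adjusted p = 2.36e-18). Sst and Ppy were at or below 1.26 CPM in all 6 libraries. Krt7, a keratin of ducts that was at 138, 168 and 138 CPM with SW016789 and 96.8, 106.1 and 111.2 CPM with thapsigargin, made up most of the summed acinar and ductal level, and Bhlha15, an acinar factor that is also a target of XBP1 in mice, was higher with thapsigargin (-1.25 ± 0.16, adjusted p = 1.66e-07).

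Of the 12 largest called differences on the thapsigargin side all but that of Atf3 were in genes with a mean under 3 CPM with SW016789, most of which reached the required mean of 1 CPM through their thapsigargin level. Anxa10, an annexin (chr8:62057042-62123193), stood at 1.75, 3.41 and 2.98 CPM with SW016789, 87.2 and 96.5 CPM in 2 thapsigargin libraries and more in replicate 3, and 3.24, 3.24 and 3.45 CPM with DMSO (-5.16 ± 0.47, adjusted p = 8.47e-11). Gpnmb, a membrane glycoprotein of stressed lysosomes (chr6:49036518-49058182), was at 2.69, 1.35 and 1.76 CPM with SW016789, 54.3, 59.8 and 79.7 CPM with thapsigargin and 1.11, 1.62 and 1.31 CPM with DMSO (-5.05 ± 0.63, adjusted p = 8.05e-08). SW016789 lay near the vehicle for both, and thapsigargin 35.7-fold and 33.2-fold above SW016789. Cmya5, a muscle protein gene, was at 0.853, 0.676 and 0.124 CPM with SW016789 and 19.6, 23.7 and 20.2 CPM with thapsigargin (-5.25 ± 1.06, adjusted p = 0.000271), and Bpifc at 0.938, 0.322 and 0.471 and 12.2, 12.6 and 14.3 CPM (-4.48 ± 1.07, adjusted p = 0.00179). Some of the largest differences were in genes with few counts under SW016789, and their calls did not hold in every fit that left out 1 library. Mmp12, a macrophage elastase, was at 0, 0.0322 and 0 CPM with SW016789 and 1.71, 2.62 and 1.66 CPM with thapsigargin, and its call was lost without SW016789 replicate 1 or 3. Acox2, an enzyme of bile acid synthesis, at 0.49, 0.0322 and 0.298 and 19.4, 15.9 and 14.7 CPM, lost its call without SW016789 replicate 2, and the lectin gene Lgals3, at 0.341, 1.1 and 0.62 and 13.2, 14.8 and 19.7 CPM, without SW016789 replicate 1 or 3. Calls of Saa3, an acute phase gene at 4.07, 3.35 and 4.46 CPM with thapsigargin, and of Cyb5r2, a reductase at 2.95, 2.8 and 3.4 CPM, were lost whichever of the 6 libraries was left out for Saa3 and with 4 of them for Cyb5r2.

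On the SW016789 side the largest differences were mostly genes that thapsigargin had lowered. Slc38a5, a glutamine carrier (chrX:8271381-8280176), stood at 99.4, 126 and 114.3 CPM with SW016789, 11.1, 9.08 and 11.4 CPM with thapsigargin and 97.9, 95.2 and 108.4 CPM with DMSO. SW016789 was near the vehicle (0.17 ± 0.15, adjusted p = 0.832) and 10.7-fold above thapsigargin (3.42 ± 0.17, adjusted p = 7.72e-18). Lcp2, an adaptor of immune receptor signalling (chr11:34047201-34092280), was at 30.4, 29.1 and 36.9 CPM with SW016789, 2.8, 2.68 and 3.57 CPM with thapsigargin and 46.7, 44.1 and 43.3 CPM with DMSO (3.41 ± 0.15, adjusted p = 5.01e-19). C1qa, a complement subunit, was at 10.7, 12.2 and 14.6 CPM with SW016789 and 1.68, 0.823 and 2.04 CPM with thapsigargin (3.03 ± 0.24, adjusted p = 3.92e-12). The leukocyte markers Ptprc, Adgre1, Itgam and Lyz2 were at or below 0.5 CPM in all 6 libraries, and the macrophage marker Cd68 was at 10.1, 8.5 and 5.08 CPM with SW016789 and 7.14, 7.26 and 7.58 CPM with thapsigargin (0.11, adjusted p = 0.985, not called). The part of such cells in these differences was not tested.

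Rcn3, a Ca2+-binding protein of the ER lumen (chr7:45082914-45092213), stood out from that pattern. It was at 19.7, 21 and 20.1 CPM with SW016789, 1.95, 1.46 and 1.94 CPM with thapsigargin and 5.22, 6.01 and 6.21 CPM with DMSO. The compounds had moved it in opposite directions from the vehicle, to 1.80 ± 0.28 with SW016789 (adjusted p = 4.96e-05) and -1.70 ± 0.29 with thapsigargin (adjusted p = 1.61e-05), with 3.50 ± 0.31 between them (adjusted p = 2.69e-11). Apof, an apolipoprotein at 2.98, 3.96 and 3.64 CPM with SW016789 and 0.195, 0.0915 and 0.352 CPM with thapsigargin, had the largest difference of the named genes on this side (4.01 ± 0.57, adjusted p = 1.16e-06). Clec1a, a lectin gene, came next (3.81 ± 0.84, adjusted p = 0.000742). Those of the 12 largest on this side not described so far, Lipc, Adtrp, BC030870, Klhdc7a, Fam151a and Tmem154, were at 2.64 to 3.32. Apof, Clec1a, Lipc, Adtrp, BC030870 and Klhdc7a had a mean under 1 CPM with thapsigargin. They reached the required mean of 1 CPM through their SW016789 level.

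Whether these differences were there earlier was asked by testing the change of the SW016789 minus thapsigargin difference from 6 to 24 h. It was called for 1822 genes (8.38%), 856 rising and 966 falling, where falling means a move towards thapsigargin. At 6 h the compounds differed at 2513 genes (11.6%), 1641 higher with SW016789 and 872 with thapsigargin. The sign was opposite at the 2 times, with calls at both and in the change, for 120 genes, of which 71 were higher with SW016789 at 6 h and 49 at 24 h. The percent of reads between genes was 6.17 to 26.51 in the SW016789 and 8.23 to 33.95 in the thapsigargin libraries of 6 h, above the 24 h range in part of them. Without the 6 libraries of 1 to 6 h above 25% the change was called for 539 genes rising and 1145 falling, and with experiment as a block plus this percent in the model for 1452 and 1317. The count was 782 without SW016789 6 h replicate 2, 783 without thapsigargin 24 h replicate 3, 999 without SW016789 6 h replicate 3 and 1203 without thapsigargin 24 h replicate 2.

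BiP turned around. Hspa5 was at 4051 to 5502 CPM with SW016789 and 2299 to 2362 CPM with thapsigargin at 6 h, and so 1.06 higher with SW016789 on the log2 scale (adjusted p = 4.54e-10), where at 24 h the order was the reverse (-0.92). The change was -1.98 (adjusted p = 1.24e-12). Sel1l made the same turn, from 0.71 (adjusted p = 1.14e-08) to -0.66. Of the chaperone list 18 of 22 were higher with SW016789 at 6 h and 0 with thapsigargin, and the change fell for 17 and rose for 0.

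The gene of CHOP was not called at 6 h. Ddit3 was at 54.1 to 76.3 CPM with SW016789, 55.3 to 66.4 CPM with thapsigargin and 12.0 to 14.5 CPM with DMSO at 6 h, so that both compounds had raised it and their libraries overlapped (0.17, adjusted p = 0.697). At 24 h all SW016789 libraries lay under their 6 h range and all thapsigargin libraries over theirs, a step not tested within a compound, and the change of the difference was -2.90 (adjusted p = 4.74e-09). Of the 24 genes of the branch 12 were higher with thapsigargin at 6 h and 1 with SW016789, and the change fell for 14 and rose for 0. Jun differed at 6 h by -1.78 (adjusted p = 1.42e-11) and at 24 h by -1.77, a change of 0.01 that was not called.

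Derl3 was at 71.9 to 98.4 CPM with SW016789 and 13.26 to 19.01 CPM with thapsigargin at 6 h (2.35, adjusted p = 1.7e-10), and the log2 fold change was 0.28 at 24 h (adjusted p = 0.423), a change of -2.07 (adjusted p = 1.86e-06). Mafa was not called at 6 h (0.07, adjusted p = 0.888), with 124.9 to 214.9 CPM under SW016789 and 139 to 179 CPM under thapsigargin, and its difference rose to 24 h by 1.70 (adjusted p = 8.97e-06). For the insulin and granule list 19 of 21 were higher with SW016789 at 6 h, and the change rose for 3 and fell for 4. Srebf1 turned from -0.53 (adjusted p = 4.32e-05) to 1.09. P4hb held, at 0.74 at 6 h and 0.70 at 24 h, with a change of -0.04 (adjusted p = 0.963).

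**Figure D5:**
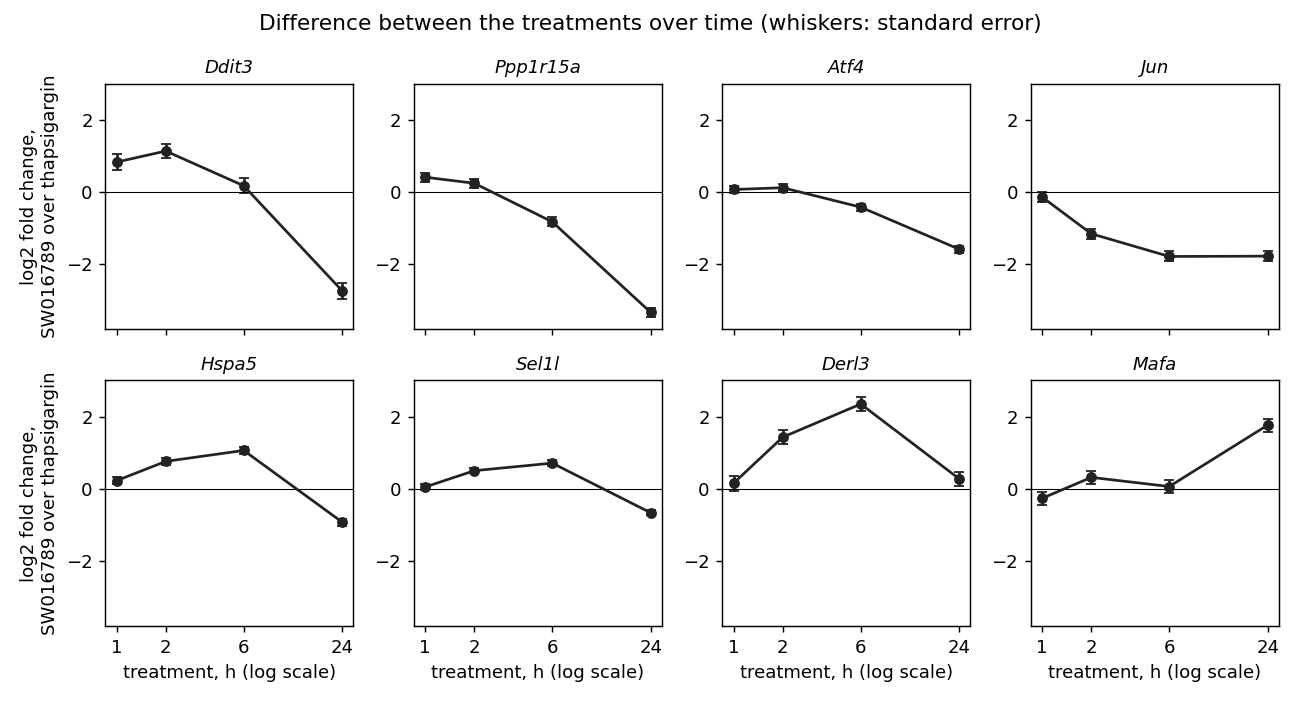
Log2 fold change of SW016789 over thapsigargin after 1, 2, 6 and 24 h (x axis on a log scale) for 8 genes, with the standard error of the fit. Hspa5 and Sel1l cross 0 between 6 and 24 h (1.06 to -0.92 and 0.71 to -0.66), Ddit3 falls from 0.17 to -2.73, Derl3 from 2.35 to 0.28, Jun is at -1.78 at 6 h and -1.77 at 24 h, and Mafa rises from 0.07 to 1.76.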

How the data were processed

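Total RNA of MIN6 cells was sequenced in 13 groups of 3 libraries, 39 in all, grouped by the sample labels. The deposited table holds raw counts for each gene symbol on mm10, which the authors made with STAR and featureCounts of the Subread package from uniquely mapped pairs with strand taken into account. Versions are STAR 2.5.2b and Subread 1.5.1 in the submitters' processing notes but later ones in the study's methods. By the labels ribosomal RNA was removed, while the methods give an mRNA kit. The deposited mapping table gave the percent of reads by region. Another 78 columns of normalized values were not used.

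Counts were fitted in R 4.3.3 with edgeR 4.0.16 as 1 quasi-likelihood model of 13 groups, without a block, after filterByExpr and TMM scaling, and tested two-sided with Benjamini-Hochberg adjustment at 0.05 over 21752 genes. Of 24421 symbols 605 had no read. The code was tested on simulated data. The 3 libraries of a group come from independent experiments on 1 cell line. The p-values measure a difference against the spread within groups, which was estimated over all 39 libraries and not over those of 24 h alone. No pair of replicates was closer than sampling noise, with a chi-square per degree of freedom of 11.47 to 49.44. The 26 gene lists, the genes named and the comparison were chosen with earlier results of these data known. Named were the 12 largest called differences in each direction with at least 1 CPM, no overlap and no predicted symbol, the 4 members of each list that differed most, and a fixed set of genes of interest, 132 in all, and further list members were named after their values were seen. The series' design text gives 3 experiments of 13 samples and the titles number the 3 samples of each group, and this number was taken to be the experiment, which no label spells out, and to pair the samples. At 24 h the median correlation of deviations from the group means was 0.0245 for same-numbered libraries, with 4 of 9 above 0.1, and -0.0023 for the rest, with 3 of 18. The alternatives tried were DESeq2 1.42.0, its size factors in edgeR, filters on low counts, robust dispersion, the experiment number as a block, also with the intergenic percent, fits of the 24 h libraries alone, and leaving libraries out. Promoters of RefSeq matched 103 of the 132 named genes and 15907 of those tested, and motifs were sought on both strands.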

Additional observations from a re-analysis of the deposited data

Results flagged for a closer look

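For 18 of 22 genes followed over time, the difference between SW016789 and thapsigargin changed between 6 and 24 h by a test of that change itself (edgeR's quasi-likelihood test, adjusted p below 0.05 over all genes, of which 8.38% were called). These 22 genes were chosen with earlier results of the data known. In the PERK branch the log2 fold change of SW016789 over thapsigargin moved towards thapsigargin by -2.90 for Ddit3, -2.50 for Ppp1r15a, -2.01 for Trib3, -1.79 for Atf3 and -1.16 for Atf4. Among genes of the ER lumen, its sensors and its degradation pathway it moved by -2.07 for Derl3, -1.98 for Hspa5, -1.50 for Herpud1, -1.37 for Sel1l, -1.28 for Atf6 and -0.99 for Syvn1, and the cytosolic chaperone Hsph1 moved by -1.17.

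Towards SW016789 it moved by 2.30 for Slc38a5, 1.70 for Mafa, 1.61 for Srebf1, 1.34 for the cell cycle factor E2f2, 0.83 for Ins1 and 0.68 for Pdx1. The change of Ins1 was not called in 10 of the 12 fits that leave out 1 library of 6 or 24 h, and was 0.49 (adjusted p = 0.216) without the 6 libraries above 25% intergenic reads. That of Pdx1 was not called without thapsigargin 24 h replicate 3, SW016789 6 h replicate 2 or thapsigargin 6 h replicate 1. No such loss was found for the other 16.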

How the results depend on the processing

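No call of a named gene turned its direction under any alternative run, while medians near 0 changed sign for the cell death list, genes that β cells keep low and both lists of other cell types. Direct differences at 24 h were called for 3924 genes, and for 4369 with the replicate block, 4853 with DESeq2, 3302 to 4049 with other scaling or filters and 5128 with the replicate block and the intergenic percent. Fits of the 24 h libraries alone called more, 6273 over 9 libraries with the replicate block, with 2951, 2850 and 3187 genes higher with thapsigargin over 9 libraries, over 6 and over 9 with the block, beside 1797, the cause of which was not tested. Leaving out 1 library gave 2358 to 3400 genes, 1277 to 1876 higher with SW016789 and 1081 to 1530 higher with thapsigargin.

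SW016789 against DMSO, called for 655 genes, gave 1263 with DESeq2, 343 with at least 10 counts in 3 libraries, 1356 with the block and the intergenic percent, 1341 over the 9 libraries, 1678 over these with the block, and 267 to 539 with 1 library left out, the lowest without thapsigargin 24 h replicate 3, 297 without SW016789 replicate 1 and 369 without SW016789 replicate 2. Thapsigargin against DMSO, called for 4511, gave 6777 over 9 libraries with the block and 3054 to 4456 with 1 left out. The change from 6 to 24 h, called for 1822, gave 2769 with the block and the intergenic percent, 782 to 1897 with 1 library left out and, without the libraries above 25% intergenic reads, a setting chosen after seeing the data, 539 rising and 1145 falling. Leaving out each library of 6 h was also chosen after seeing the data.

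Of the 110 named genes called, 96 were called without any 1 library. Over 2240 refits of named genes 49 calls were lost and 43 gained. Of 1326 values of the lists 175 moved, mostly small counts, such as chaperones higher with SW016789, 3 beside 7 with DESeq2. Counts on the SW016789 side of the ERAD, cell death, cholesterol, NRF2 and heat shock lists, at 1 or 2, fell to 0 or 1 in some or all fits with 1 library left out. Among the named genes the replicate block changed the call of Egr2 and no other, and list counts it moved by over 1.5 times stand beside their results. Depth limits genes under 1 CPM, of which 13 were called.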
